A study of Mus musculus with 7 samples.

Results

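The TEAD factors, their coactivators and the kinases of the Hippo pathway were followed in C2C12 cells, an established line of mouse skeletal myoblasts. The genes described are the transcription factor genes Tead1, Tead2, Tead3 and Tead4, the coactivator genes Yap1 and Wwtr1 (which encodes TAZ), the kinase genes Lats1 and Lats2, and the target genes Amotl2 and Ankrd1. They were taken by symbol from the array annotation, with the probe set of highest mean over the arrays for each, and all 10 were found among 22180 genes. Cells in medium with 15% fetal bovine serum received a control siRNA (2 arrays), an siRNA against G9a (siG9a, 3 arrays) or an siRNA against GLP (siGLP, 2 arrays), at 0.2 µmol per 100 mm dish. The gene Ehmt2 encodes G9a and Ehmt1 encodes GLP, paralogous methyltransferases that mark histone H3 on a lysine residue tied to gene silencing, and the study asked whether their roles in myoblasts differ. The time between transfection and harvest, the siRNA sequences and whether replicates were separate cultures were not found in the sources used here. The p-values therefore rest on the spread between these arrays alone, which may be technical.

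TEAD proteins sit on DNA at the MCAT motif but need a coactivator to activate transcription. YAP and TAZ supply that function when they are in the nucleus. The Hippo kinase cascade, in which MST kinases activate the LATS kinases, phosphorylates YAP and TAZ and keeps them in the cytoplasm or has them degraded. In muscle, MCAT motifs lie upstream of many contractile genes, and Tead2 has been reported as a direct target of MyoD, the master regulator of the lineage. Much of the control in this pathway acts on protein phosphorylation and location, which RNA levels do not measure.

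The group was chosen by the log2 values of Tead2, which earlier results of these arrays had placed among the strongest falls in siG9a, and the probe set of each gene by its mean signal over the 7 arrays. The values of Tead2 in the siG9a arrays are therefore given as a description, without a p-value, and support nothing here. Both siRNAs were checked on their own targets. Ehmt2 had a log2 signal of 7.56 and 7.46 in control, 6.31, 6.14 and 5.99 in siG9a, and 7.37 on both siGLP arrays. Ehmt1 had 6.71 and 6.73 in control, 6.74, 6.60 and 6.53 in siG9a, and 5.73 and 6.13 in siGLP. The targeted transcript was thus lower on every array of its own knockdown, with Ehmt2 at 38.8% of control in siG9a (limma, Benjamini-Hochberg adjusted p = 0.0308) and Ehmt1 at 58.0% in siGLP, which did not pass (limma adjusted p = 0.197). No gene, Ehmt2 included, was called in siG9a minus control when any 1 of the 7 arrays was left out, without variance moderation, with the siGLP arrays out of the fit or with the replicate number as a block (limma; 1832 to 2384 genes at an unadjusted p under 0.05). Of 9 myoblast markers (Myod1, Myf5, Des, Cdh15, Vim, Pax7, Itga7, Ncam1 and Chrna1), 8 had a mean above the upper quartile of all probe sets in each group, with Pax7 below it. Their summed linear signal was 11586 to 11982 in control, 11427 to 11661 in siG9a and 11120 to 11389 in siGLP, below control on every siGLP array. Vim, with mean log2 signals of 12.61, 12.62 and 12.59 in that order, weighs most in the sum, and the dimmer markers add little to it. None of the 9 passed in siG9a or siGLP. An unadjusted p under 0.05 was reached by 4 lower in siG9a (Myod1, Cdh15, Pax7 and Itga7), against 4.57% of all genes, and by 2 lower in siGLP (Cdh15 and Des), against 4.13%, with 0 higher in either. The siG9a arrays lay all below the controls for 5 of the 9 (11.7% of all genes), and the siGLP arrays for 6 (16.9%). Of 9 leukocyte, endothelial and epithelial markers, 8 were below that quartile in each group, and the exception was Cd68. The linear signal summed over those 9 was 277 to 293 in control, 347 to 382 in siG9a and 328 to 383 in siGLP, and without Cd68 it was 143 to 144, 138 to 161 and 142 to 156. Cd68, which encodes a lysosomal protein of macrophages and other cells, stood 0.62 above control in siG9a and 0.54 in siGLP on the log2 scale and did not pass (limma adjusted p = 0.133 and 0.262). The part of either marker list in the results below was not tested.

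The upstream sequences of 3 genes are shown because they hold the start of the transcript that differed most and those of both target genes. They are the 250 bases before the transcript start in RefSeq (GRCm38.p6), 5′ to 3′ on the gene's strand, with matches to GGAATG (the MCAT motif, either strand) and to CANNTG (the E-box that MyoD-type factors bind, which reads the same on both strands) in capitals. Tead2 lies on chromosome 7 (chr7:45215542-45215791, plus strand), Amotl2 on chromosome 9 (chr9:102717554-102717803, plus strand) and Ankrd1 on chromosome 19 (chr19:36119845-36120094, minus strand).
Tead2: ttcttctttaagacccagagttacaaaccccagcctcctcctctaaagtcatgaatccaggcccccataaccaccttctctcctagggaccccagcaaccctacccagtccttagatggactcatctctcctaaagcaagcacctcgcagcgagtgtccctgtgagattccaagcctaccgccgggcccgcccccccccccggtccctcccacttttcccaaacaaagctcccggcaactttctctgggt
Amotl2: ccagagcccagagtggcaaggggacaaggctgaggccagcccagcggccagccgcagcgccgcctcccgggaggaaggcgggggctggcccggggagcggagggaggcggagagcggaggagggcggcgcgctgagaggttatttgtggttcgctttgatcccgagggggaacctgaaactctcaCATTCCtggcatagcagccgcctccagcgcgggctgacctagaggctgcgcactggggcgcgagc
Ankrd1: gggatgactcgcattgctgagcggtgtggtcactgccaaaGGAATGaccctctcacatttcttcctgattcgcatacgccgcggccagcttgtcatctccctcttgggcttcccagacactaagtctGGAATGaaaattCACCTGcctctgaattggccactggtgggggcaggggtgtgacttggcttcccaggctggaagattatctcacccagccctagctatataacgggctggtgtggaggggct
The Tead2 window held neither motif. The Amotl2 window held 1 MCAT match, whose first base is at -65 from the start. The Ankrd1 window held 2, at -210 and -123, and an E-box match at -111. No MCAT match overlapped an E-box match in these windows. The table had windows for 8 of the 10 genes, and not for Tead1 and Tead4. These genes had 12 windows, since some have several starts. An MCAT match was present in 7 of the 12 windows (of Tead3, Yap1, Wwtr1, Amotl2 and Ankrd1), and in 12.6% of all 32851 windows of the same length. An E-box match was present in 4 of the 12 (of Yap1, Lats2 and Ankrd1), against 66.2% of all windows. These are matches of letters in a short window and do not show binding, and the windows of Tead3 and of Wwtr1 overlap in part. The Wwtr1 matches, at -136 from 1 start and -170 from the other, are the same site, so it is counted in 2 of the 7 windows.

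Tead2 was the member with the lowest signal in siG9a relative to control. Its log2 signal was 8.29 and 8.26 in control, 7.06, 7.21 and 6.93 in siG9a, and 8.16 and 8.32 in siGLP. Every siG9a array lay below every other array, while the siGLP arrays lay on both sides of the controls. The siG9a mean was 7.07 ± 0.14 (SD, n = 3) against 8.27 ± 0.021 (SD, n = 2), a log2 difference of -1.21 (SE 0.097; 95% interval -1.44 to -0.98), or 43.3% of the control level. The siGLP mean was 8.24 ± 0.11 (SD, n = 2), and its difference from control was -0.04 (95% interval -0.29 to 0.22; limma adjusted p = 0.96). The same control arrays entered the choice of Tead2, and its siG9a arrays enter the shared variance. This p-value is therefore not free of that choice. Between the knockdowns the difference was 1.17 (siGLP minus siG9a; 95% interval 0.94 to 1.40), again without a test because it uses the siG9a arrays. The Tead2 intervals of both contrasts with siG9a describe the spread and are not read against 0. The knockdowns also differed in depth, with Ehmt2 at 38.8% of control in siG9a and Ehmt1 at 58.0% in siGLP. The part of this depth in the difference was not tested. Even at its lowest, Tead2 stayed above the upper quartile of all probe sets, which was 6.85 to 6.90 on the 7 arrays. In RNA from whole cultures, fewer cells expressing a gene and less RNA per cell cannot be told apart.

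**Figure D1:**
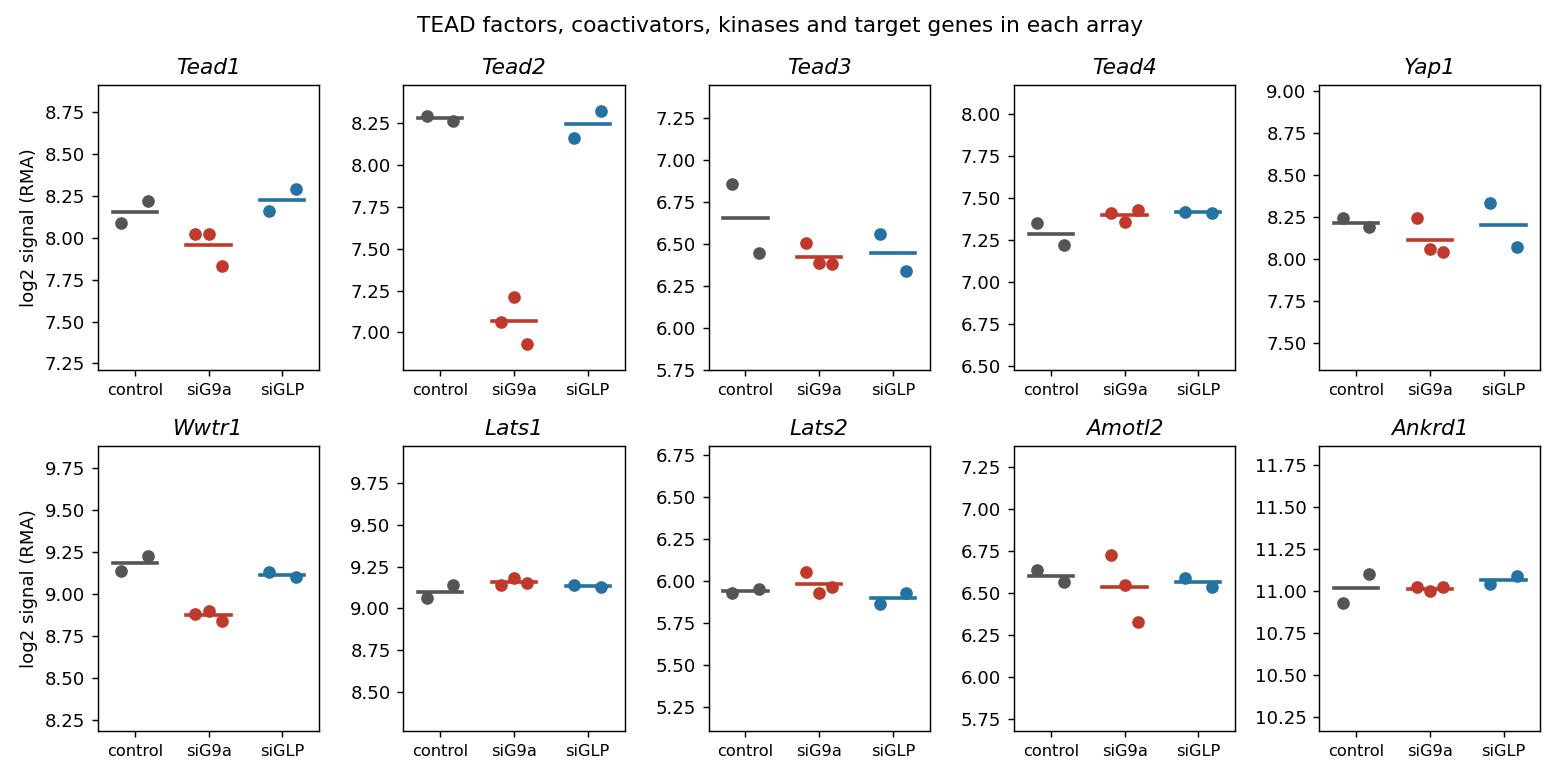
Log2 signal (RMA) of the 10 genes on each array, with points for the 2 control, 3 siG9a and 2 siGLP arrays and a line at each group mean. All panels span the same range of log2 units, and the 3 siG9a arrays of Tead2 (6.93 to 7.21) lie apart from the other arrays (8.16 to 8.32).

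The other TEAD genes did not pass in either knockdown. Tead1, the family member widely expressed in adult tissues, had a log2 signal of 8.09 and 8.22 in control, 8.02, 8.02 and 7.83 in siG9a, and 8.16 and 8.29 in siGLP. Its siG9a arrays were all below the controls, with a log2 difference of -0.20 (SE 0.090; 95% interval -0.42 to 0.01; limma adjusted p = 0.497). In siGLP the difference was 0.07 (95% interval -0.17 to 0.30; limma adjusted p = 0.902), and siGLP minus siG9a was 0.27 (95% interval 0.06 to 0.48; limma adjusted p = 0.298).

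Tead4, which acts in trophectoderm and in differentiating muscle, had 7.35 and 7.22 in control, 7.41, 7.36 and 7.43 in siG9a, and 7.42 and 7.41 in siGLP. The arrays of both knockdowns lay above both controls by a small margin. The differences were 0.11 in siG9a (95% interval -0.05 to 0.27; limma adjusted p = 0.621) and 0.12 in siGLP (95% interval -0.05 to 0.30; limma adjusted p = 0.732), and both rest on the same 2 control arrays. Tead3, known from placenta, had 6.86 and 6.45 in control, 6.51, 6.39 and 6.38 in siG9a, and 6.56 and 6.34 in siGLP. The SD of its control arrays was 0.29, which exceeds both of its differences in size (-0.23 in siG9a and -0.21 in siGLP; limma adjusted p = 0.608 and 0.766). Without control 1 the Tead3 differences were -0.03 and -0.0033, and without control 2 they were -0.44 and -0.42, so 1 control array sets their size.

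Among the coactivators, Wwtr1 had the next largest difference after Tead2. Wwtr1 had a log2 signal of 9.14 and 9.23 in control, 8.88, 8.90 and 8.84 in siG9a, and 9.13 and 9.10 in siGLP. The siG9a arrays lay below all others, with an SD of 0.029. The log2 difference was -0.31 in siG9a (SE 0.062; 95% interval -0.46 to -0.16), or 80.7% of control. It ranked 225 of 22180 genes by p and did not pass (limma adjusted p = 0.157; 0.0537 to 0.452 over 16 alternatives). In siGLP the difference was -0.07 (95% interval -0.23 to 0.09; limma adjusted p = 0.848), and siGLP minus siG9a was 0.24 (95% interval 0.10 to 0.39; limma adjusted p = 0.185). Yap1 encodes the paralogous coactivator, with 8.24 and 8.19 in control, 8.24, 8.06 and 8.04 in siG9a, and 8.33 and 8.07 in siGLP. The 3 groups of Yap1 overlapped, with differences of -0.10 in siG9a (95% interval -0.34 to 0.14) and -0.01 in siGLP (95% interval -0.28 to 0.25). The other probe set of Yap1 was dim, at 4.25 to 4.68 where the median of all probe sets was 4.54 to 4.59.

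The LATS kinases, which phosphorylate YAP and TAZ, were nearly level across the arrays. Lats1 ranged from 9.06 to 9.18 and Lats2 from 5.86 to 6.05 over all 7 arrays. The differences from control were 0.06 and 0.03 for Lats1, and 0.04 and -0.04 for Lats2, in siG9a and siGLP in that order. The 95% intervals of these 4 differences ran at most from -0.21 to 0.20. They rest on the spread between these arrays alone, and an absence of change was not tested. Lats1 and Lats2 each had an identical value on 3 of the 7 arrays, and 4746 genes in all (21.4%) had the same value on 3 or more arrays.

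The 2 target genes gave no call in either knockdown. Ankrd1, which encodes a muscle ankyrin repeat protein and is a standard readout of YAP and TAZ, had a log2 signal of 10.93 and 11.10 in control, 11.02, 11.00 and 11.02 in siG9a, and 11.04 and 11.09 in siGLP. The siG9a arrays lay between the controls. The difference was -0.0007 in siG9a (95% interval -0.17 to 0.17; limma adjusted p = 1.00) and 0.05 in siGLP (95% interval -0.13 to 0.23; limma adjusted p = 0.91). Under quantile normalization and cyclic loess its sign in siG9a turned to 0.0084 and 0.02. Amotl2, an angiomotin that is a YAP target and also binds YAP, had 6.64 and 6.57 in control, 6.73, 6.55 and 6.33 in siG9a, and 6.59 and 6.54 in siGLP. The 3 siG9a arrays of Amotl2 spanned the values of both other groups. Its differences were -0.06 (95% interval -0.34 to 0.21) and -0.04 (95% interval -0.34 to 0.27), with limma adjusted p of 0.881 and 0.968. Without siG9a 3 the siG9a value was 0.04.

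Tead2 was left out of the counts in both contrasts with siG9a, since its siG9a values chose it. Of the other 9 members 0 passed the threshold in siG9a minus control, a Benjamini-Hochberg adjusted p under 0.05 in the limma fit over all genes, where 0.0271% of all genes were called. An unadjusted p under 0.05 was reached by 1 of the 9 lower (Wwtr1), against 4.57% of all genes, and by 0 higher, against 5.95%. The siG9a arrays lay all below the controls for 2 of the 9 (Tead1 and Wwtr1), against 11.7% of all genes, and all above for 1 (Tead4), against 14.0%. The 9 had a median log2 difference of -0.06, with 6 below 0, where the median over all genes was 0.01. Nothing particular to the group is read from these counts. The difference of Tead2 itself stayed at -1.28 to -1.14 when 1 array at a time was left out. In siGLP minus control 0 of the 10 genes passed, where 0.00451% of all genes did, and 0 reached an unadjusted p under 0.05 (4.13% of all genes lower and 4.51% higher). The siGLP arrays lay all below the controls for 1 member (Wwtr1), against 16.9% of all genes, and all above for 1 (Tead4), against 17.4%. The median over the 10 was -0.02 in siGLP, where that over all genes was 0.0015. In siGLP minus siG9a 0 of the 9 members passed, against 0.234% of all genes, and 2 were higher at an unadjusted p under 0.05 (Tead1 and Wwtr1), against 5.87%, with 0 lower, against 6.57%. The siGLP arrays lay all above those of siG9a for 3 of the 9 (Tead1, Wwtr1 and Ankrd1), against 12.1% of all genes, and all below for 0, against 14.2%. Both knockdowns were set against the same control arrays.

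**Figure D2:**
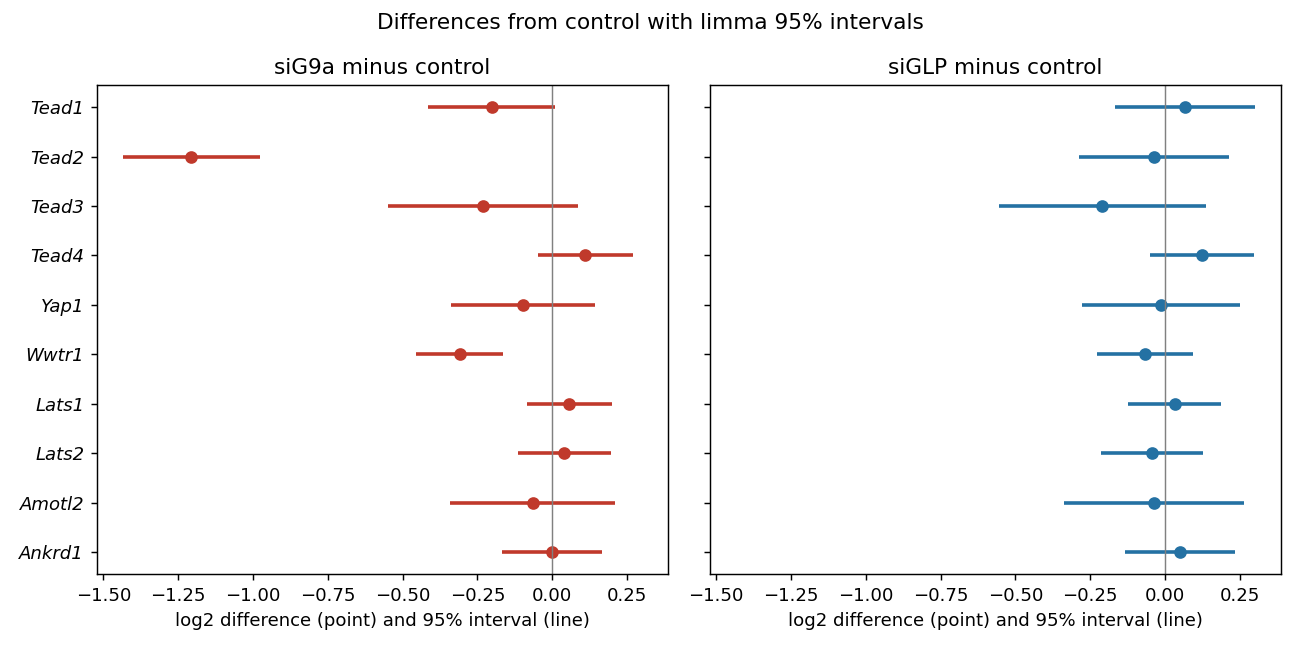
Log2 difference from control (points) with limma's 95% interval (lines) for the 10 genes, siG9a on the left and siGLP on the right, on a shared axis. In siG9a the interval of Wwtr1 (-0.46 to -0.16) lies below 0, and in siGLP all 10 intervals include 0. The intervals are not adjusted for the number of genes, and Wwtr1 did not pass in siG9a (limma adjusted p = 0.157). That of Tead2 in siG9a is a description, since those values chose it.

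The rest of the pathway was followed in 4 lists written from general knowledge. Of 29 measured Hippo kinases and scaffolds, none passed in siG9a (3 lower and 2 higher at an unadjusted p under 0.05, against 4.57% and 5.95% of all genes), with 12 below control, 17 above and a median of 0.02 against 0.01 over all genes. The smallest p-values belonged to Map4k4, a kinase that acts beside MST (-0.28; limma adjusted p = 0.249), Nf2, which encodes the upstream scaffold merlin (-0.34; adjusted p = 0.296), and Amotl1, an angiomotin (-0.32; adjusted p = 0.366). Map4k4 was at 9.94 and 9.98 in control and 9.66, 9.69 and 9.69 in siG9a, and Nf2 at 7.73 and 7.74 against 7.57, 7.26 and 7.36. For both, the siG9a arrays were below the controls. In siGLP none of the 29 passed (0 lower and 1 higher at an unadjusted p under 0.05, against 4.13% and 4.51% of all genes), the median was 0.02, and the first by p were the scaffold gene Wwc1 (0.29), the ubiquitin ligase gene Btrc (0.30) and the adaptor gene Frmd6 (0.14), with limma adjusted p from 0.567 to 0.685. Between the knockdowns none passed (2 lower and 3 higher at an unadjusted p under 0.05, against 6.57% and 5.87% of all genes), and Taok3, a kinase upstream of MST (-0.39), Stk38l, a relative of LATS (0.40), and Map4k4 (0.24) came first, with limma adjusted p from 0.147 to 0.249.

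Among 13 TEAD cofactors and partners none passed in any contrast. In siG9a 7 lay below control and 6 above (median -0.03), and 1 was lower at an unadjusted p under 0.05 (against 4.57% of all genes), Parp1, an enzyme of DNA repair reported to bind MCAT elements with TEAD1. Parp1 was at 9.28 on both control arrays and at 8.85, 9.01 and 8.83 in siG9a, a difference of -0.38 (SE 0.076; limma adjusted p = 0.157). Its arrays did not overlap. The next smallest p-values were those of Vgll1, a vestigial-like cofactor with a dim signal (3.52 in control; 0.24), and of Max (-0.09). In siGLP the median was 0.01, 2 of the 13 were lower at an unadjusted p under 0.05 (against 4.13% of all genes) and 0 higher (4.51%), and the first by p were Mef2a, a MADS-box partner of TEAD (9.25 and 9.20 in control, 8.88 and 9.00 in siGLP; -0.29; limma adjusted p = 0.316), the coactivator gene Ncoa1 (-0.20) and Vgll4, a TEAD repressor (0.13). Between the knockdowns 2 were lower and 1 higher at an unadjusted p under 0.05 (against 6.57% and 5.87% of all genes), Mef2a (-0.36; limma adjusted p = 0.0969), Parp1 (0.40; adjusted p = 0.107) and Ncoa1 (-0.23). Vgll2 and Vgll3, the muscle members of the vestigial-like family, differed from control by 0.08 and -0.03 in siG9a and by 0.09 and -0.04 in siGLP.

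Of 18 other genes of a YAP and TAZ target signature, none passed in siG9a or siGLP. In siG9a 12 lay below control and 6 above (median -0.07, against 0.01 over all genes), and 5 were lower and 0 higher at an unadjusted p under 0.05 (against 4.57% and 5.95% of all genes). The siG9a arrays were all below the controls for 5 (against 11.7%) and all above for 1 (against 14.0%). The gene with the smallest p was Rbms3, which encodes an RNA-binding protein. Rbms3 was at 7.0 and 7.11 in control, 6.42, 6.42 and 6.39 in siG9a, and 6.98 and 6.82 in siGLP. Its siG9a arrays stood apart from all others, with a difference of -0.64 (SE 0.075; 95% interval -0.82 to -0.47; limma adjusted p = 0.0739). It passed in siG9a when genes below the median or the 30th percentile of level were left out, after quantile normalization and with trended, robust moderation. Those settings called 148, 30, 16 and 100 genes in all, in that order, against 6 in the main fit. The growth factor gene Tgfb2 (-0.34; limma adjusted p = 0.249) and Dock5, an activator of Rac (-0.37; adjusted p = 0.26), came next.

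The CCN genes, the most used readouts of YAP and TAZ beside Ankrd1, gave no call. Ccn2 was at 7.59 and 8.35 in control, 8.60, 8.02 and 8.20 in siG9a, and 8.10 and 8.40 in siGLP, so its control arrays spanned most of the range and the 95% interval in siG9a ran from -0.29 to 0.91. Ccn1 was at 9.44 and 9.60 in control, 9.67, 9.59 and 9.51 in siG9a, and 9.76 and 9.81 in siGLP. The siGLP arrays of Ccn1 lay above all others, with a difference of 0.26 (SE 0.088; limma adjusted p = 0.464).

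In siGLP 8 of the 18 signature genes lay below control and 10 above (median 0.01), and 3 were lower and 1 higher at an unadjusted p under 0.05 (against 4.13% and 4.51% of all genes). The smallest p-values belonged to the matrix protein gene Ccdc80, Dock5 and Tgfb2. Ccdc80 was at 6.90 and 7.03 in control, 6.55, 6.83 and 6.44 in siG9a, and 6.08 and 6.18 in siGLP. Dock5 was at 8.33 and 8.22 in control, 8.08, 7.85 and 7.79 in siG9a, and 7.57 and 7.63 in siGLP. For both genes the siGLP arrays were the lowest and the siG9a arrays lay between the groups. The siGLP differences were -0.83 for Ccdc80, -0.67 for Dock5 and -0.41 for Tgfb2, with limma adjusted p of 0.184, 0.184 and 0.30. These values and those of siG9a share the control arrays. In siGLP minus siG9a none of the 18 passed (2 lower and 3 higher at an unadjusted p under 0.05, against 6.57% and 5.87% of all genes), and Rbms3 (0.49; limma adjusted p = 0.069), Ccdc80 (-0.47) and the receptor kinase gene Axl (0.24) had the smallest p.

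Of 15 muscle genes with reported TEAD input, none passed in any contrast, with a median of -0.07 in siG9a and -0.15 in siGLP and 10 of 15 below control in each. Of all 22180 genes, 10657 lay below control in siG9a and 10911 in siGLP. In siG9a 1 was lower at an unadjusted p under 0.05 (against 4.57% of all genes), the cardiac actin gene Actc1 (4.37 and 4.72 in control, 3.67, 3.99 and 4.15 in siG9a; -0.61; limma adjusted p = 0.251). The control level of Actc1 lay on both sides of the median of all probe sets. Fgfr4, a receptor gene reported as a direct target of TEAD2 in regenerating muscle, was at 4.65 and 4.51 in control, 4.51, 4.49 and 4.10 in siG9a, and 4.34 and 4.51 in siGLP. The groups of Fgfr4 overlapped at a signal near or below that median, with a difference of -0.22 in siG9a (95% interval -0.54 to 0.11; limma adjusted p = 0.64). Des, which encodes desmin, stood at -0.10 in siG9a. In siGLP 2 of the 15 were lower at an unadjusted p under 0.05 (against 4.13% of all genes), and the first by p were Chrng, the fetal acetylcholine receptor subunit (-0.85; limma adjusted p = 0.164), Des (-0.20) and Myog (-0.45). In siGLP minus siG9a, where 1 was lower at an unadjusted p under 0.05 (against 6.57% of all genes), Chrng (-0.72; limma adjusted p = 0.0686), Myf5 (-0.35) and Actc1 (0.26) had the smallest p.

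**Figure D3:**
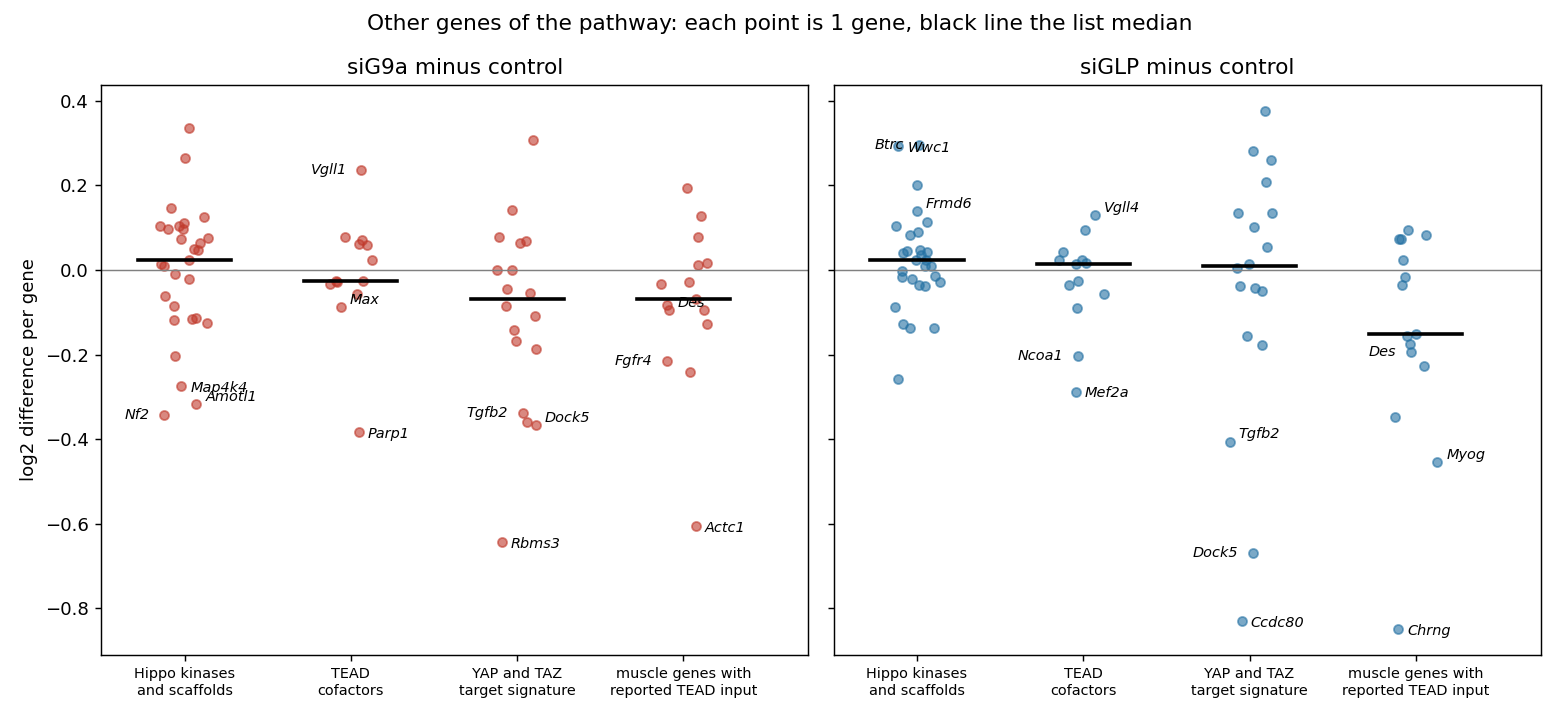
Log2 difference from control of each measured gene of the 4 lists (points), with the list median (black line) and the names of the 3 genes of smallest p, siG9a on the left and siGLP on the right. No gene passed, the list medians lie between -0.15 and 0.02, and the lowest points are Rbms3 (-0.64) and Actc1 (-0.61) in siG9a and Chrng (-0.85) and Ccdc80 (-0.83) in siGLP.

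The profile of Tead2 over the 7 arrays was compared with 11347 genes whose highest group mean was at least the median level. Pearson's r was highest for Dcp1a, an mRNA decapping factor (0.998), Eif5a2, a paralog of the elongation factor eIF5A (0.995), the RNA helicase gene Ddx1 (0.995), Galnt1, which starts O-linked glycosylation (0.994), and the zinc finger gene Zfp106 (0.993). Dcp1a was at 8.31 and 8.30 in control, 7.65, 7.68 and 7.54 in siG9a, and 8.28 and 8.34 in siGLP. In each of the 5 genes the 3 siG9a arrays lay below the other 4, so r measures mainly that gap and is a description over arrays that fall into separate levels. Ehmt2 ranked 13 by the same measure (r = 0.985) and Myod1 ranked 82 (r = 0.953). Myod1 was at 7.46 and 7.80 in control, 7.04, 6.99 and 6.82 in siG9a, and 7.53 and 7.73 in siGLP, and its siG9a arrays were below all others. Its difference in siG9a was -0.68 (SE 0.13; limma adjusted p = 0.146), which did not pass, against -1.21 for Tead2, and the difference between these genes was not tested.

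**Figure D4:**
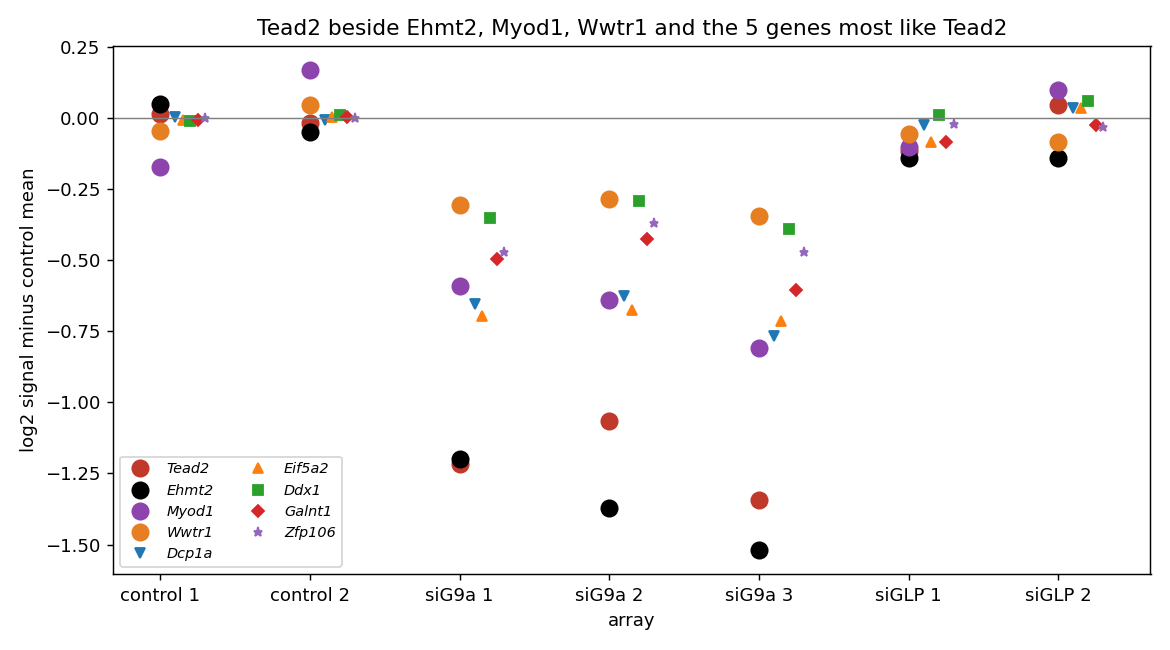
Log2 signal minus the control mean on each array for Tead2, Ehmt2, Myod1 and Wwtr1 (large circles) and the 5 genes most like Tead2 (small symbols, set to the right of their array). All 9 genes lie below 0 on the 3 siG9a arrays, with Tead2 and Ehmt2 lowest.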

How the data were processed

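RNA from 7 samples was measured on 1 single-colour Affymetrix array each, from 100 ng of total RNA per the labels. The authors deposited log2 values per probe set. RMA and Partek, with no version, come from the submitters' processing notes. In RMA the background is corrected, arrays are quantile normalized and probes are summarised, so low values are compressed. The log2 scale was taken from the range of the values. Of 33649 probe sets, 23521 had 1 gene symbol, 1814 several and 8314 none. Symbols were updated through RefSeq gene numbers (GRCm38.p6; 23328 matched, 193 kept theirs), and the probe set of highest mean was kept for 1082 genes with several, leaving 22180 genes.

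Tests used limma 3.58.1 and R 4.3.3 (lmFit and eBayes, 1 mean per group, all 7 arrays in 1 fit, 6.89 moderated degrees of freedom), two-sided, with Benjamini-Hochberg adjustment over all genes. Intervals are 95% limma intervals. Precision is limited by the number of arrays. The script was tested on simulated data. Members and lists were chosen with earlier results of these data known. Named genes are all members, Ehmt1, Ehmt2 and Myod1, the 3 genes of smallest p in each list and contrast, and the 5 most like Tead2. Ccn1, Ccn2, Vgll2, Vgll3 and Cd68 were named after their values were seen. Some listed genes are not analysed here. Alternatives were level filters, other normalizations, other variance models, fits of fewer arrays, a replicate block and the mean of all probe sets.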

Additional observations from a re-analysis of the deposited data

Results flagged for a closer look

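Tead2 had the largest difference between the knockdowns among the members: siGLP minus siG9a was 1.17 on the log2 scale. The 2 siGLP arrays were at 8.16 and 8.32 and the 3 siG9a arrays at 7.06, 7.21 and 6.93. Tead2 was chosen with its siG9a values known, so no p-value is given and its rank among the members supports nothing. Of the other 9 members, none passed in that contrast (limma, smallest adjusted p = 0.185, Wwtr1; 2 at an unadjusted p under 0.05), and for none of them did all siG9a arrays and all siGLP arrays lie on opposite sides of the control mean.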

How the results depend on the processing

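Each result was recomputed under 16 alternatives, 7 of which left out 1 array. The difference of Tead2 moved by less than its spread within groups (SD 0.11) under all of them in both contrasts with siG9a. Many of them could not move it. Level filters, other variance models, the mean of probe sets (Tead2 has 1) and fits without arrays of the third group returned the same difference. The siG9a values chose Tead2, so this is a description. For the same reason Tead2 is not counted against the threshold in the contrasts with siG9a. Among the other 9 members, Wwtr1 had the smallest limma adjusted p over the alternatives in both contrasts. It was 0.0537 in siG9a minus control and 0.0669 in siGLP minus siG9a, each with trended, robust moderation, and did not pass. In siGLP minus control 0 members passed under every alternative. Rbms3 was called, as 1 signature gene, in siG9a with genes below the median or the 30th percentile of level left out, after quantile normalization and with trended, robust moderation, and 1 in siGLP minus siG9a under both level filters and trended, robust moderation. In siGLP minus siG9a 2 cofactor genes (Mef2a and Parp1) passed above the median level and with trended, robust moderation, and 1 muscle gene (Chrng) passed under both level filters and trended, robust moderation. Over all genes, that contrast had 52 calls in the main fit. It had 350 above the median level, 171 above the 30th percentile and 304 with trended, robust moderation. In siG9a minus control the main fit called 6 genes, and those settings called 148, 30 and 100, with 16 after quantile normalization. The other list counts stayed at 0.

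Signs turned in 19 recomputed member values, none of them a call, and 429 kept their sign and their side of the threshold. Many of the 429 could not turn. Level filters, other variance models and fits without arrays of the third group return the same difference. In siG9a, Ankrd1 turned to 0.0084 after quantile normalization and 0.016 after cyclic loess, and Amotl2 to 0.041 with the replicate block. In siGLP minus siG9a the block gave -0.0017 for Tead3 and -0.077 for Amotl2. Leaving out 1 array gave -0.16 to 0.041 for Amotl2 and -0.083 to 0.082 for Ankrd1 in siG9a. In siGLP it gave -0.0027 to 0.13 for Tead1, -0.11 to 0.043 for Tead2, -0.14 to 0.12 for Yap1, -0.0035 to 0.069 for Lats1 and -0.033 to 0.13 for Ankrd1. In siGLP minus siG9a it gave -0.091 to 0.13 for Tead3, -0.0089 to 0.029 for Tead4, -0.044 to 0.22 for Yap1 and -0.077 to 0.13 for Amotl2. The cause was not tested.

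Replicate numbers are shared between groups, but nothing in the labels says that a number marks a shared day. Deviations of same-numbered arrays correlated at 0.005 to 0.172 over genes (6 pairs), and those of the other pairs at -0.172 to 0.149. In a group of 2 arrays the deviations mirror each other, so these values cannot decide whether the numbers mark pairs. The main fit did not use the numbers, and the replicate block is given as an alternative. With the replicate block limma called 0 of all genes in every contrast. An unadjusted p under 0.05 was then reached by 2170 genes in siG9a and 2070 in siGLP against control, and by 2620 between the knockdowns.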
